A study of Mus musculus with 40 samples.

Results

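The genotype difference in mouse liver at the lowest dose of CDDO-Im, the imidazolide of a synthetic triterpenoid, was taken from 8 of the 40 arrays of the series. The 8 arrays were the 4 labelled Nrf2-null liver and the 4 labelled Wt liver at 3 μmol/kg CDDO-Im, and all 9695 measured genes were compared, with 1 probe set for each gene. The whole series holds 4 Nrf2-null and 4 Wt mice for each of 5 treatments, namely 3, 10 and 30 μmol/kg CDDO-Im, 300 μmol/kg D3T, a dithiolethione that also activates Nrf2, and vehicle. The mice were male C57BL/6J mice of 12 weeks, fed AIN-76A diet, and those of the null groups were Nrf2-/-. Each mouse was gavaged 3 times over 5 days, and liver was taken 24 hours after the last gavage. The vehicle, which held Cremophor-EL and DMSO in PBS, was also the control treatment. The null allele is present in every cell from conception, so the comparison is one of lifelong loss of Nrf2 and not of its loss during treatment. The null mice came from inbred heterozygous mice. The arrays measured RNA of whole liver, in which fewer cells of a type and less RNA per cell cannot be told apart.

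Nrf2 is a transcription factor that Keap1 holds in the cytoplasm and marks for degradation. Electrophiles such as CDDO-Im modify cysteines of Keap1, and Nrf2 then enters the nucleus, pairs with a small Maf protein and binds antioxidant response elements near genes of detoxification. In liver these genes encode enzymes that reduce or conjugate reactive compounds and pumps that export the conjugates, and Nrf2 also bears on iron handling, NADPH supply and lipid metabolism.

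Values are log2 intensities, and a difference is that of Nrf2-null minus Wt, so that 1 unit is a 2-fold difference and a negative value is lower in Nrf2-null liver. A gene is said to be higher or lower when the Benjamini-Hochberg adjusted p of limma was under 0.05 over the 9695 genes. Fold sizes of genes below log2 4, the minimum a probe set had to reach on 3 arrays of any group, are not exact. Where a probe set reached it in groups of 1 genotype alone, a difference in that direction was favoured by this choice. Probe sets of near-identical family members, as among the Gsta, Gstm, Ugt2b, Cyp4a, Acot, Orm and Saa genes, may share signal.

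Of the 9695 genes, 931 differed between Nrf2-null and Wt liver at this dose (9.6%), 453 higher (4.67%) and 478 lower (4.93%). By at least 2-fold, 54 were higher and 75 lower. In 378 of the higher and 395 of the lower genes no mouse of 1 genotype overlapped the other, and in 158 called genes mice overlapped. Called or not, the mice did not overlap in 946 genes higher in Nrf2-null liver (9.76%) and 838 lower (8.64%), 18.4% of all. The median difference of all genes was 0.0088. Without Wt replicate 1 the count was 597 and without Wt replicate 2 it was 601, while leaving out each of the other 6 mice gave 655 to 889. Counts of called genes in the lists below are to be read beside the 4.67% higher and 4.93% lower of all genes. With vehicle these shares were 5.85% and 4.97%.

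Nfe2l2, which encodes Nrf2 and lies at chr2:75675513-75704663 of GRCm38.p6, was at 2.78, 2.78, 2.83 and 3.10 in the Nrf2-null mice, against 11.12, 10.77, 11.03 and 11.75 in the Wt mice. The groups lay far apart, and the difference was −8.30 (exact permutation test, two-sided, p = 0.029, the smallest that 4 against 4 mice allow). The other kept probe set of the gene went the other way. It ranged from 6.55 to 7.47 in the Nrf2-null mice and from 5.34 to 6.12 in the Wt mice, a difference of 1.39 (exact permutation test, p = 0.029). With vehicle the same probe set differed by 0.43 (exact permutation test, p = 0.11). The sources used here do not say where the 2 probe sets lie relative to the deleted part of the gene.

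These 2 groups were chosen for comparison because their clock gene levels were similar, so the levels are a description of that choice and not a result. A score, the mean of 7 evening-phase clock genes minus that of 5 morning-phase ones, averaged −2.72 ± 0.25 in the Nrf2-null mice and −2.78 ± 0.22 in the Wt mice (SD, n = 4 each). It ranged from −3.01 to −2.43 in the Nrf2-null and from −2.99 to −2.48 in the Wt mice. None of the 12 clock genes was called, which the choice favours. With vehicle it ran from −3.31 to 3.08 in the Nrf2-null mice, where replicate 1 stood apart, and from −2.85 to −2.54 in the Wt mice.

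The mice differed in genes of the acute-phase response, the set of plasma proteins that liver secretes in inflammation. The mean over 21 measured genes was 11.30, 11.23, 12.72 and 11.22 in Nrf2-null replicates 1 to 4, and 13.19, 13.10, 12.45 and 11.57 in Wt replicates 1 to 4. Nrf2-null replicate 3 lay within the range of the Wt mice, and Wt replicate 4 lay nearest to the other 3 Nrf2-null mice. With vehicle the mean ran from 11.30 to 12.13 in the Nrf2-null and from 11.49 to 11.79 in the Wt mice. Without both of these mice 742 genes were called, 614 of them among the 931. With the acute-phase mean as a covariate 660 were called, 539 of them among the 931. Both settings were chosen after seeing the data.

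The mean of 9 measured hepatocyte markers ran from 15.49 to 15.51 in the Nrf2-null and from 15.48 to 15.53 in the Wt mice. Of these Ahsg (0.34) and Apoa1 (0.16) were higher and Hnf4a (−0.57) was lower. The call of Apoa1 ended without Nrf2-null replicates 1, 2 or 3 or Wt replicates 1 or 2 (adjusted p up to 0.21). Of the 10 measured stellate cell markers Hand2 was higher (0.76), of the 12 Kupffer cell markers Marco was lower (−1.96), and none of the 2 neutrophil, 3 lymphocyte, 11 endothelial, 2 bile duct, 3 exocrine pancreas and 2 red blood cell markers was called. The call of Hand2 ended without Nrf2-null replicates 3 or 4 or Wt replicates 2 or 3 (adjusted p up to 0.12). Of the groups with this dose or vehicle, Marco reached the minimum on 3 arrays only in the Wt group at this dose, which favoured its call. The mean of the 2 neutrophil markers ran from 5.06 to 7.16 in the Nrf2-null and from 4.33 to 9.20 in the Wt mice.

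Glutathione transferases, which couple glutathione to reactive compounds, were lower in Nrf2-null liver. Of 19 measured genes 8 were lower, 1 was higher and 10 were not called, with a median difference of −0.38. With vehicle 7 were lower and 1 was higher. Gstm3 was at 8.48, 8.25, 9.0 and 8.75 in the Nrf2-null mice, against 11.11, 11.28, 12.22 and 11.86 in the Wt mice. No mouse overlapped, and the difference was −3.00 ± 0.35 (standard error, as in the values that follow; adjusted p = 3.6e-07), an 8.02-fold lower level. Its other kept probe set gave −0.87, which did not pass (adjusted p = 0.19). Gsta2 was at 10.47, 10.11, 9.77 and 10.38 in the Nrf2-null and at 12.18, 13.03, 13.52 and 13.46 in the Wt mice, a difference of −2.87 ± 0.35 (adjusted p = 8.9e-07). Gstm1 was at 11.24, 10.74, 11.12 and 11.16 in the Nrf2-null and at 12.94, 13.24, 13.43 and 14.01 in the Wt mice, a difference of −2.34 ± 0.22 (adjusted p = 3.6e-09). In both genes the lowest Wt mouse lay above the highest Nrf2-null mouse. The exception was Mgst3, a microsomal transferase, which was higher by 0.73 (adjusted p = 0.031), and its call ended without Nrf2-null replicates 1 or 3 (adjusted p = 0.095 and 0.093) or Wt replicates 1 or 2 (0.17 and 0.084).

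Enzymes that reduce, oxidize or hydrolyse reactive groups showed the same direction in fewer of their members. Of 32 measured genes 7 were lower and 2 higher, the carbonyl reductase Cbr4 (0.41) and the soluble epoxide hydrolase Ephx2 (0.43), with a median of −0.13. The call of Cbr4 ended without Nrf2-null replicates 1 or 2 or Wt replicate 1 (adjusted p up to 0.062). Nqo1, the quinone reductase, was at 3.23, 3.22, 3.22 and 3.40 in the Nrf2-null mice and at 5.56, 5.56, 6.02 and 6.56 in the Wt mice. The Nrf2-null mice all lay below the minimum, and the difference was −2.66 ± 0.32 (adjusted p = 6.2e-07). Aox1, an aldehyde oxidase, was at 9.43, 9.33, 9.17 and 9.38 in the Nrf2-null mice, against 11.99, 11.91, 12.12 and 12.39 in the Wt mice, a difference of −2.78 ± 0.19 (adjusted p = 8.7e-13). Its relative Aox3 was lower by a log2 difference of −1.93 (adjusted p = 0.0078), and Ephx1, the microsomal epoxide hydrolase, by −1.66 (adjusted p = 4.1e-10). The call of Aox3 ended without Wt replicate 4 and Nrf2-null replicate 3 together (adjusted p = 0.078). Cbr1, a carbonyl reductase, was at 10.52, 10.19, 11.03 and 10.38 in the Nrf2-null mice and at 10.14, 10.85, 10.63 and 10.84 in the Wt mice. These ranges overlapped, and the difference of −0.08 did not pass (adjusted p = 0.89). Of 9 measured carboxylesterases 2 were lower, Ces1g and Ces2b (−2.29, adjusted p = 0.0030). Ces2b was at 2.18, 2.57, 2.60 and 2.22 in the Nrf2-null and at 6.32, 3.55, 5.31 and 3.55 in the Wt mice. Only Wt replicates 1 and 3 lay above the minimum, so the size is not exact. Ces1g was at 8.87, 9.50, 9.77 and 9.60 in the Nrf2-null mice and at 12.52, 12.74, 12.97 and 13.35 in the Wt mice, a difference of −3.46 ± 0.26 (adjusted p = 9.7e-12).

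Most genes of glucuronidation were lower. Of 13 measured genes that make, carry or transfer glucuronic acid 10 were lower and 1, Ugt2a3, was higher (0.31, and without Wt replicate 3 at adjusted p = 0.051), with a median of −0.775, and with vehicle 9 were lower. Ugt2b35, a glucuronosyltransferase, was at 11.76, 11.71, 11.21 and 12.00 in the Nrf2-null mice, against 13.98, 13.78, 13.94 and 14.00 in the Wt mice. The difference was −2.26 ± 0.12 (adjusted p = 1.2e-15). Ugt2b37 was lower by −2.33 (adjusted p = 0.0046). Ugdh, which makes the UDP-glucuronic acid that these enzymes use, was at 12.04, 12.28, 12.31 and 12.25 in the Nrf2-null and at 13.38, 13.28, 13.32 and 13.43 in the Wt mice, a difference of −1.14 ± 0.14 (adjusted p = 1.4e-06). Of 12 measured efflux transporters 2 were lower. Abcc3, which exports conjugates toward blood, was at 9.57, 9.29, 9.73 and 9.37 in the Nrf2-null and at 11.28, 11.63, 11.92 and 12.14 in the Wt mice, a difference of −2.25 ± 0.22 (adjusted p = 5.0e-09). Abcc2, which exports them into bile, was lower by −0.51 ± 0.11 (adjusted p = 0.0030). Abcc4 differed by 0.04 (adjusted p = 0.96), with overlapping mice.

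**Figure D1:**
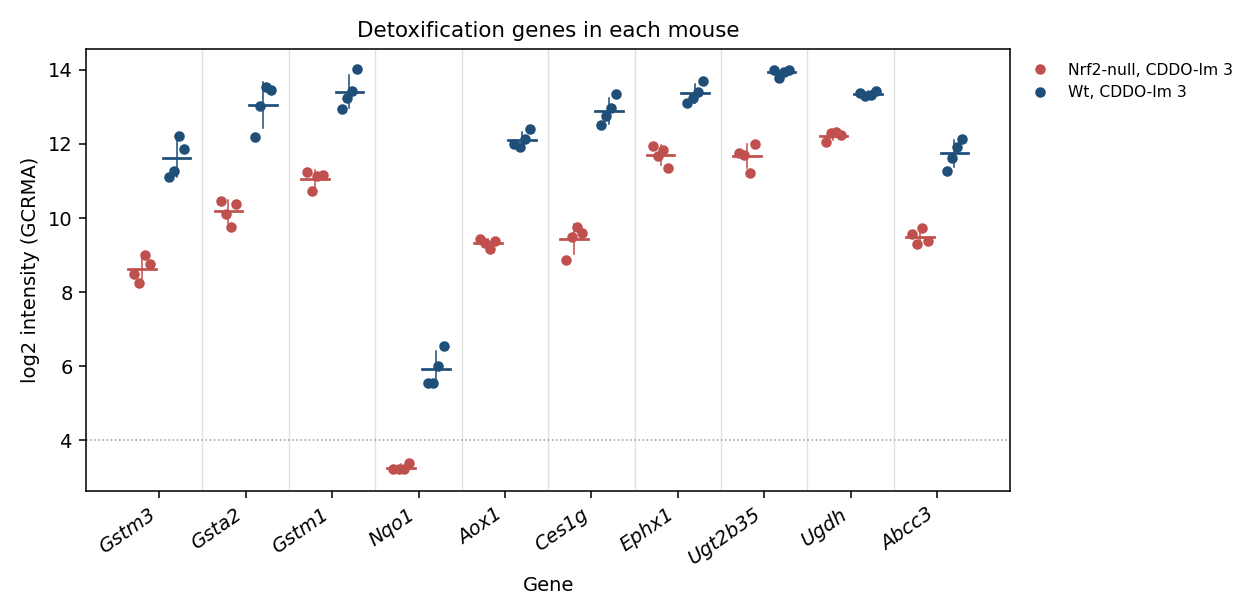
Log2 intensity of 10 detoxification genes in each mouse at 3 μmol/kg CDDO-Im, with Nrf2-null mice left and Wt mice right of each pair, horizontal lines at the means, vertical lines of 1 SD each way (n = 4) and a dotted line at the minimum of log2 4. In each gene the 4 Nrf2-null mice lie below the 4 Wt mice, and the 4 Nrf2-null values of Nqo1, from 3.22 to 3.40, lie below the minimum.

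Called genes of the thiol system differed by less, and the list of NADPH supply had a median of −0.025, with 4 genes positive and 4 negative. Of 19 measured genes that make, recycle or use glutathione and thioredoxin 5 were lower and 1 was higher. Txnrd1, the cytosolic thioredoxin reductase, was at 9.99, 9.86, 9.96 and 9.93 in the Nrf2-null and at 10.65, 10.60, 10.70 and 10.85 in the Wt mice, a difference of −0.76 ± 0.10 (adjusted p = 1.4e-06). Its other kept probe set differed by −0.26 and did not pass (adjusted p = 0.55). Txnrd2, the mitochondrial form, was higher by 0.64 (adjusted p = 0.0060). Gpx4, which reduces lipid hydroperoxides, was lower by −0.52 (adjusted p = 5.7e-05). Srxn1, which repairs peroxiredoxins, was lower by −0.76 (adjusted p = 0.019), and its call ended without Nrf2-null replicate 2 (adjusted p = 0.053) or Wt replicate 3 (0.085). Of 8 measured genes of NADPH supply 1 was lower, the malic enzyme Me1, by −0.96 (adjusted p = 0.022), a call that ended without each of 5 of the 8 mice, namely Nrf2-null replicates 1 and 4 and Wt replicates 1, 3 and 4 (adjusted p up to 0.076), and on the probe set of largest variance (−0.44, adjusted p = 0.39). Of 16 measured genes of heme and iron 3 were lower, namely the biliverdin reductase Blvrb by −0.53 (adjusted p = 0.043), Fth1, the ferritin heavy chain, by −0.28 (adjusted p = 0.00071), and Slc48a1, a heme transporter, by −0.60 (adjusted p = 0.0058). The call of Blvrb ended without any 1 of 6 of the 8 mice, all except replicate 1 of each genotype (adjusted p up to 0.14). Hamp2, a hepcidin, was higher by 1.48 (adjusted p = 0.017), and its call ended without Nrf2-null replicates 1 or 3 (adjusted p = 0.056 and 0.075) or Wt replicate 1 (0.085).

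The core of the antioxidant response element, TGACNNNGC, was looked for on both strands in the 300 bases from 250 before to 50 after the RefSeq start of each gene. It was in the promoters of 66 of 385 lower genes with a listed promoter (17.1%), of 52 of 381 higher genes (13.6%) and of 1191 of all 7950 tested genes with one (15%). These shares lie close together. Of 39 lower genes of the detoxification lists taken broadly, with the thiol, NADPH, iron and sulfotransferase lists among them, 34 had a listed promoter, and 5 of these held the core. The stricter form TGACTCAGC, which contains the TGACTCA site that AP-1 factors also bind, was in 4 of the lower genes (1.04%), 3 of the higher (0.787%) and 33 of all (0.415%). Me1, Hfe, Pir and F2r were the 4, and a site of each is shown with those of Ugdh, Abcc2, Slc35d1 and Srxn1, the other genes of these lists with the core. Each run reads 5′ to 3′ along the gene's strand in GRCm38.p6, with the core in capitals, as GC first where it lies on the other strand. Pir, Abcc2 and Srxn1 are on the plus strand and the others on the minus strand. The cores shown lie upstream of the start, except those of Srxn1 and Me1. That of Srxn1 lies downstream, and that of Me1 begins 6 bases upstream and runs past the start.
Me1 (chr9:86695902-86695930): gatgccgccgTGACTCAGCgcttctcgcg
Hfe (chr13:23710897-23710937): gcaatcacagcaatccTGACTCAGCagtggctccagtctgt
Pir (chrX:164269201-164269241): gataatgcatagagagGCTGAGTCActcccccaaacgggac
F2r (chr13:95618648-95618688): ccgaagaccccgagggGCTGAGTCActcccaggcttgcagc
Ugdh (chr5:65435950-65435990): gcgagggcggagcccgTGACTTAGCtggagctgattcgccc
Ugdh, second (chr5:65435912-65435952): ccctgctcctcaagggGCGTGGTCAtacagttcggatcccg
Slc35d1 (chr4:103215253-103215293): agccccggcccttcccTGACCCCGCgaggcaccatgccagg
Abcc2 (chr19:43782194-43782234): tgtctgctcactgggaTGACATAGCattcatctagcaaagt
Srxn1 (chr2:152105542-152105570): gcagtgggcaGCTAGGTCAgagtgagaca

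A match is a description of the letters and not a bound site. Hfe, which regulates hepcidin and so iron uptake, was at 9.91, 9.87, 9.83 and 9.87 in the Nrf2-null mice, against 10.84, 10.92, 10.96 and 10.82 in the Wt mice, and differed by −1.01 ± 0.08 (adjusted p = 2.5e-11). The mice of each genotype lay close together, and the genotypes did not overlap. Pir, the iron-binding protein pirin, was at 8.56, 8.53, 8.57 and 8.51 in the Nrf2-null and at 9.09, 9.31, 9.48 and 9.68 in the Wt mice, lower by −0.85 (adjusted p = 0.012). F2r, the thrombin receptor, was lower by −0.94 (adjusted p = 0.030), which did not pass without each of 6 of the 8 mice, all except Nrf2-null replicate 2 and Wt replicate 4.

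Most of the other genes among the largest falls were in none of the detoxification lists. The uncharacterised 9130409I23Rik was at 4.13, 4.83, 3.48 and 4.25 in the Nrf2-null mice and at 10.49, 10.23, 10.61 and 10.40 in the Wt mice, a difference of −6.26 ± 0.42 (adjusted p = 1.2e-12). It differed by −6.57 with vehicle. Scara5, a ferritin receptor, was at 4.17, 5.44, 5.61 and 2.21 in the Nrf2-null and at 9.82, 10.37, 9.19 and 6.34 in the Wt mice, a difference of −4.57 ± 0.83 (adjusted p = 0.00054), with Wt replicate 4 nearest to the Nrf2-null mice. Dct, dopachrome tautomerase, was lower by −3.45 (adjusted p = 0.00064), Fitm1, which takes part in the storage of fat in droplets, by −3.24 (adjusted p = 1.1e-05), and the sulfotransferase Sult5a1 by −2.52 (adjusted p = 0.00016). Serpina12, the serpin vaspin, was lower by −3.12 (adjusted p = 0.043), and the call ended without any 1 of 7 of the 8 mice, all except Nrf2-null replicate 2 (adjusted p up to 0.15).

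Genes that the receptor PPARA is known to induce were higher in Nrf2-null liver. Of 20 measured genes of this list 8 were higher and 1 was lower, with a median of 0.33. With vehicle the counts were also 8 and 1, with a larger median of 0.64. Cyp4a14, a fatty acid ω-hydroxylase, was at 14.68, 14.79, 14.69 and 14.61 in the Nrf2-null mice, against 9.33, 9.12, 10.92 and 12.88 in the Wt mice. The Nrf2-null mice lay close together and above all Wt mice, of which replicate 4 was the highest, and the difference was 4.12 ± 0.50 (adjusted p = 8.9e-07). Cyp4a31 was at 8.13, 8.25, 8.55 and 7.77 in the Nrf2-null and at 4.66, 5.48, 6.05 and 6.65 in the Wt mice, higher by 2.47 (adjusted p = 5.7e-05). Abcd2, a peroxisomal fatty acid transporter, was at 8.28, 7.67, 8.93 and 8.54 in the Nrf2-null and at 3.09, 5.08, 4.33 and 7.02 in the Wt mice, higher by 3.47 ± 0.60 (adjusted p = 0.00024). The acyl-CoA thioesterases Acot3, Acot1 and Acot2 were higher by 3.46 (adjusted p = 0.00078), 2.28 (7.6e-05) and 1.90 (1.1e-05). The other kept probe set of Acot2 gave 0.36 and was not called (adjusted p = 0.22). Acot1 was at 10.62, 10.68, 10.71 and 10.60 in the Nrf2-null and at 7.56, 7.73, 8.50 and 9.71 in the Wt mice. In each of these thioesterases Wt replicate 4 was the Wt mouse nearest to the Nrf2-null mice. Acot4 was higher by 1.16 (adjusted p = 0.013), without Nrf2-null replicate 1 or Wt replicate 1 at adjusted p = 0.057 and 0.086. The list counts were 8 higher and 1 lower without Wt replicate 4, 8 and 1 without Nrf2-null replicate 3 and 7 and 1 without both. The 1 lower gene was Cd36, a fatty acid translocase, at −0.89 (adjusted p = 0.0097), which did not pass on the probe set of largest variance (−0.93, adjusted p = 0.057). Ppara itself did not pass at −0.39 (adjusted p = 0.30).

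Fatty acid oxidation genes were higher as well. Of 23 measured genes 9 were higher and none was lower, with a median of 0.35 and mice that did not overlap in 13, where with vehicle 2 were higher and 2 lower with a median of 0.027. Over all genes tested at this dose 4.67% were higher and 18.4% had mice that did not overlap. Ehhadh, the peroxisomal bifunctional enzyme, was at 13.96, 13.95, 13.95 and 13.72 in the Nrf2-null mice, against 12.13, 12.11, 12.77 and 12.75 in the Wt mice, a difference of 1.45 ± 0.26 (adjusted p = 0.00034). Ech1, an isomerase of unsaturated fatty acyl-CoAs, was at 13.66, 13.62, 13.50 and 13.60 in the Nrf2-null and at 12.63, 12.71, 12.79 and 13.00 in the Wt mice, a difference of 0.81 ± 0.10 (adjusted p = 6.6e-07). Acadvl, the very long chain acyl-CoA dehydrogenase of mitochondria, was higher by 0.58 ± 0.06 (adjusted p = 8.4e-08), and Decr1, a dienoyl-CoA reductase, by 0.64 ± 0.14 (adjusted p = 0.0025), the last of which did not pass on the probe set of largest variance (0.67, adjusted p = 0.11). No mouse overlapped in these 4 genes. The count was 9 without Wt replicate 4 and 10 without Nrf2-null replicate 3 or without both.

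Of 24 measured genes of fatty acid synthesis 19 had a positive difference, with a median of 0.53, against a median of −0.012 with vehicle. The mice did not overlap in 12 of them, but 1 gene was called, a share near the 4.67% of all genes. It was the elongase Elovl5, at 0.73 (adjusted p = 0.033), whose call ended without any 1 of 6 of the 8 mice, all except Wt replicates 3 and 4 (adjusted p up to 0.10). Of 18 measured genes of cholesterol synthesis 1 was higher, phosphomevalonate kinase, Pmvk, at 1.10 (adjusted p = 0.043), a call that ended without any 1 of 7 of the 8 mice, all except Wt replicate 4 (adjusted p up to 0.12). This 1 of 18 is also near the share of all genes. None of 20 measured genes of glucose metabolism was called. Other genes of lipid handling among the largest rises were Vldlr, a lipoprotein receptor, which was at 8.12, 7.44, 8.09 and 7.41 in the Nrf2-null and at 4.64, 5.67, 5.13 and 5.49 in the Wt mice (2.53 ± 0.44, adjusted p = 0.00027), and Fabp5, a fatty acid binding protein. Fabp5 was higher by 1.99 (adjusted p = 0.033), and its call ended without Nrf2-null replicates 2 or 3 (adjusted p = 0.071 and 0.11) or Wt replicates 2 or 4 (0.098 and 0.082).

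**Figure D2:**
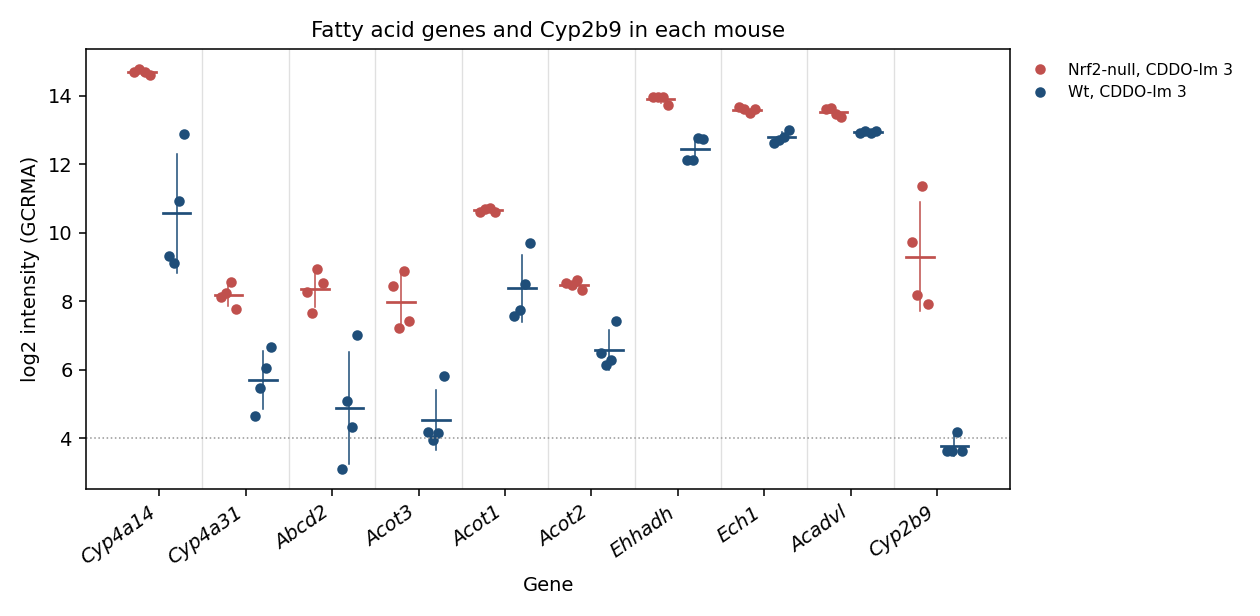
Log2 intensity of 9 genes of fatty acid metabolism and of Cyp2b9 in each mouse at 3 μmol/kg CDDO-Im, with Nrf2-null mice left and Wt mice right, horizontal lines at the means, vertical lines of 1 SD each way (n = 4) and a dotted line at the minimum of log2 4. In each gene the 4 Nrf2-null mice lie above the 4 Wt mice, and Wt mice spread most in Abcd2, from 3.09 to 7.02, and Cyp4a14, from 9.12 to 12.88.

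Cyp2b9, a cytochrome P450 that is higher in female than in male mouse liver, had the largest rise. It was at 9.72, 8.19, 11.36 and 7.93 in the Nrf2-null mice, against 3.63, 3.64, 4.19 and 3.63 in the Wt mice, a difference of 5.53 ± 0.82 (adjusted p = 3.1e-05). Wt replicate 3 lay just above the minimum and the other Wt mice under it, so the size is not exact. With vehicle the Wt mice were at 3.63 to 3.64. Of the groups with this dose or vehicle only Nrf2-null ones passed the filter, so a higher level of Cyp2b9 in them was favoured. Of 27 measured P450s of families 1 to 3, 4 were higher and 1 was lower. Of 8 measured female-biased liver genes 3 were higher, Cyp2b9, Abcd2 and Acot3, the last 2 also members of the PPARA list. Of 15 measured male-biased genes 6 were lower, with a median of −0.61. Cyp7b1, an oxysterol hydroxylase of bile acid synthesis, was at 12.80, 13.33, 10.03 and 12.67 in the Nrf2-null mice and at 14.56, 14.29, 14.53 and 14.13 in the Wt mice. The difference was −2.17 ± 0.50 (adjusted p = 0.0048), and −1.45 (adjusted p = 0.033) without Nrf2-null replicate 3. Moxd1, a copper monooxygenase homolog, was at 2.15, 2.15, 2.16 and 2.16 in the Nrf2-null and at 9.25, 9.28, 7.94 and 2.15 in the Wt mice, so that Wt replicate 4 lay among the Nrf2-null mice. Of the groups with this dose or vehicle only Wt ones passed the filter in Moxd1, which favoured a lower level in Nrf2-null liver. The number of lower male-biased genes was 4 without Wt replicate 4, and 3 without Nrf2-null replicate 3 or without both.

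Rad51b, a recombination gene, was higher by 3.23 (adjusted p = 0.0016), Pde4b, a cAMP phosphodiesterase, by 1.94 (adjusted p = 0.0018), and Afp, the fetal albumin-like protein, by 1.94 (adjusted p = 0.00026). In Rad51b the Wt mice lay below the minimum, from 2.53 to 3.10, so the size is not exact. Of the groups with this dose or vehicle only the Nrf2-null group at this dose passed the filter, so a rise of Rad51b was favoured. Pde4b did not pass on the probe set of largest variance (1.17, adjusted p = 0.13), and the other 2 kept probe sets of Afp gave 0.46 (adjusted p = 0.33) and 0.49 (adjusted p = 0.21). Afp was at 6.95, 7.01, 6.92 and 7.31 in the Nrf2-null and at 4.60, 5.09, 5.84 and 4.88 in the Wt mice. Of 16 measured cell cycle genes 2 were higher, against 4 with vehicle. They were Mcm3, of the replication helicase, by 1.74 (adjusted p = 0.0049), and Ccnd1, cyclin D1, by 1.38 (adjusted p = 0.017). The call of Ccnd1 ended when Nrf2-null replicate 3 (adjusted p = 0.074) or Wt replicate 1 (0.060) was left out, and on the probe set of largest variance (0.97, adjusted p = 0.14). That of Mcm3 ended without Wt replicate 4 and Nrf2-null replicate 3 together (adjusted p = 0.054).

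Proteasome subunits were higher in Nrf2-null liver by small amounts. Of 32 measured subunits 14 were higher and none was lower, with a median of 0.20, and with vehicle 8 were higher with a median of 0.185. Psmb3, a subunit of the core particle, was at 13.20, 13.07, 13.16 and 13.23 in the Nrf2-null mice, against 12.46, 12.46, 12.73 and 12.58 in the Wt mice, a difference of 0.61 ± 0.10 (adjusted p = 9.9e-05). Psma6, also of the core, was higher by 0.53 (adjusted p = 2.5e-05), but by 0.02 on its probe set of largest variance (adjusted p = 0.98), which was not called. In the regulatory particle Psmd13 was higher by 0.66 (adjusted p = 0.0077), as was Psmd3, by 0.62 (adjusted p = 0.00093). Without both Wt replicate 4 and Nrf2-null replicate 3 the count was 7, and Psmd13 was not called (adjusted p = 0.072).

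Chaperones of the endoplasmic reticulum, which fold secreted proteins, were lower. Of 18 measured genes 7 were lower and none was higher, with a median of −0.53, against 1 lower and a median of −0.087 with vehicle. In none of the 18 was the genotype difference called as differing from that with vehicle. For Creld2 that change was −1.41 (adjusted p = 0.40) and for Manf −0.81 (adjusted p = 0.52). Creld2 was at 8.70, 8.70, 8.96 and 9.04 in the Nrf2-null mice and at 11.01, 11.62, 11.52 and 9.76 in the Wt mice, and differed by −2.13 ± 0.53 (adjusted p = 0.0093). Manf was at 11.22, 11.43, 11.46 and 11.86 in the Nrf2-null and at 13.05, 13.30, 13.30 and 12.42 in the Wt mice, and differed by −1.52 ± 0.38 (adjusted p = 0.0087). In both genes, which are induced when unfolded proteins gather in this compartment, Wt replicate 4 was the lowest Wt mouse and still above the Nrf2-null mice. Dnajb9, a co-chaperone, was at 10.85, 11.22, 11.29 and 11.77 in the Nrf2-null and at 12.67, 12.66, 12.68 and 12.61 in the Wt mice, with a difference of −1.37 ± 0.29 (adjusted p = 0.0022). Dnajc3 was lower by −0.61 (adjusted p = 0.024), a call that ended without any 1 of 6 of the 8 mice, all except Nrf2-null replicate 3 and Wt replicate 4 (adjusted p up to 0.088).

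Wt replicate 4, the lowest Wt mouse in Creld2 and Manf, was also the lowest in the acute-phase mean. Without Wt replicate 4, without Nrf2-null replicate 3 and without both, 8 chaperones were lower each time, and with the acute-phase mean as a covariate 4 were, with a median of −0.33. Under the covariate the difference of Creld2 was −1.85, against −2.13 without it, and did not pass (adjusted p = 0.0525).

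Of 21 measured acute-phase genes 3 were lower, all of them orosomucoids, and none was higher. Orm2 was at 8.18, 7.13, 12.31 and 7.04 in the Nrf2-null mice, against 12.91, 13.65, 12.50 and 8.68 in the Wt mice. Nrf2-null replicate 3 was high, Wt replicate 4 was low and the groups overlapped, with a difference of −3.27 ± 0.98 (adjusted p = 0.030). The call ended without any 1 of 6 of the 8 mice, all except these 2 (adjusted p up to 0.12). Orm3 differed by −3.20 (adjusted p = 0.0077), without Wt replicate 2 at adjusted p = 0.052, and Orm1 by −0.72 (adjusted p = 0.011), without Nrf2-null replicate 2 at 0.054. Lcn2, the iron-siderophore binding protein lipocalin 2, was at 5.79, 6.13, 11.27 and 5.82 in the Nrf2-null and at 13.44, 12.54, 11.21 and 6.96 in the Wt mice. Its difference of −3.79 did not pass (adjusted p = 0.071), but passed without Nrf2-null replicate 3 (−5.13, adjusted p = 0.015) and without Wt replicate 4 (−5.15, adjusted p = 0.012). Saa1 and Saa2, serum amyloids A, differed by −2.90 and −3.00 and did not pass (adjusted p = 0.054 and 0.12). Without Nrf2-null replicate 3 both passed, at −3.92 (adjusted p = 0.0089) and −4.08 (0.037), and without Wt replicate 4 Saa1 passed at −3.31 (adjusted p = 0.043). Lcn2 and the amyloids were chosen after their values were seen. The 2 mice were singled out by the acute-phase genes themselves, so larger differences of these genes without them follow from that choice and support nothing. Marco, a scavenger receptor of Kupffer cells, was at 2.27, 2.27, 3.89 and 2.28 in the Nrf2-null and at 4.48, 4.46, 6.88 and 2.72 in the Wt mice. It was lower by −1.96 (adjusted p = 0.018), a call that ended without Nrf2-null replicates 1, 2 or 4 (adjusted p up to 0.058) or Wt replicate 3 (−1.21, adjusted p = 0.12). Of the groups with this dose or vehicle, only the Wt group at this dose reached the minimum on 3 arrays. A lower level of Marco in Nrf2-null liver was thus favoured by the filter. Mean Kupffer marker levels, from 8.54 to 9.43 in the Nrf2-null and from 8.57 to 9.66 in the Wt mice, overlapped.

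**Figure D3:**
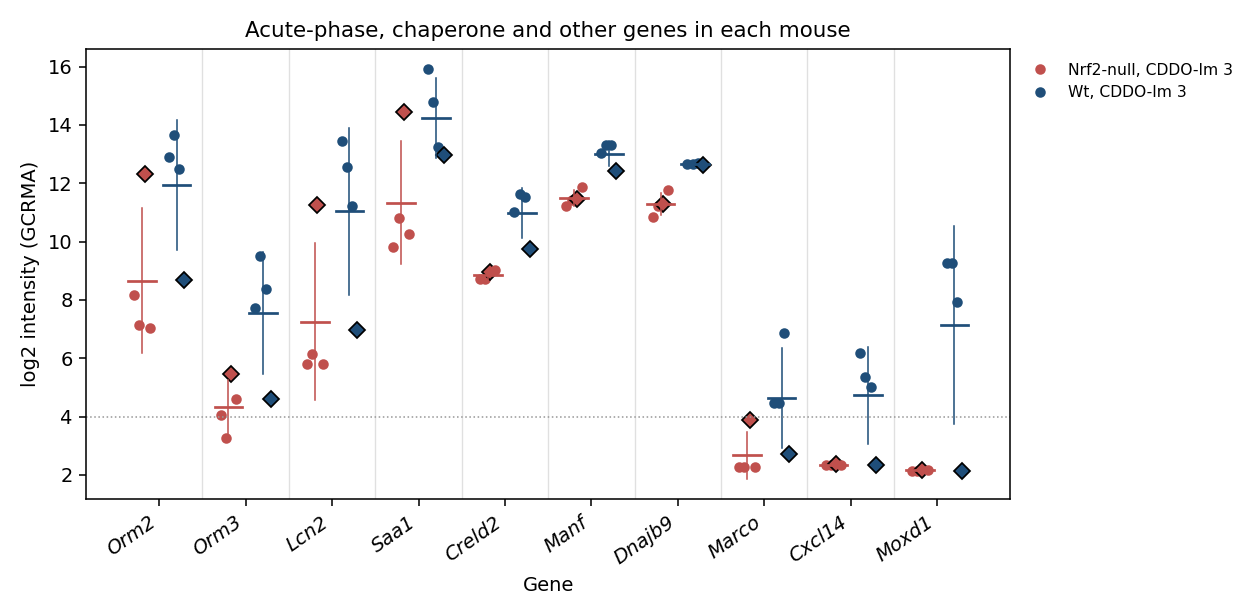
Log2 intensity of 10 genes of the acute-phase, chaperone and other groups in each mouse at 3 μmol/kg CDDO-Im, with Nrf2-null mice left and Wt mice right, horizontal lines at the means, vertical lines of 1 SD each way (n = 4), a dotted line at log2 4, and diamonds for Nrf2-null replicate 3 and Wt replicate 4. In Orm2 the diamonds, at 12.31 and 8.68, lie near the mice of the other genotype, and in Dnajb9, with Nrf2-null mice from 10.85 to 11.77 and Wt mice from 12.61 to 12.68, the genotypes do not overlap.

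The genotype difference at this dose was set against that in the vehicle mice, to ask which genes differed between genotypes by another amount after CDDO-Im. Of the 9695 genes 167 did (1.72%), 81 with a more positive difference (0.835%) and 86 with a more negative one (0.887%). With arrays centred on their medians 73% of 226 calls were more positive instead of 48.5%, and with quantile normalization again 60.4% of 182. Nrf2-null vehicle replicate 1, which stood apart in the clock score, bore on the count. Without it 347 genes were called, and leaving out any 1 of the other 15 mice gave 95 to 190.

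Genes of fatty acid oxidation were among those with a more positive difference, 5 of 23 measured genes. Ech1 differed between genotypes by 0.81 with CDDO-Im and by 0.03 with vehicle, a difference of 0.78 (adjusted p = 0.0010). It was at 13.55, 13.01, 13.32 and 13.07 in the Nrf2-null vehicle mice and at 13.26, 13.19, 13.23 and 13.17 in the Wt vehicle mice, which overlapped. Slc25a20, the carnitine-acylcarnitine carrier of mitochondria, was at 12.90, 12.96, 12.99 and 12.97 in Nrf2-null and at 12.48, 12.53, 12.44 and 12.72 in Wt liver with CDDO-Im. With vehicle it was at 12.74, 12.12, 12.60 and 12.35 in Nrf2-null and at 12.78, 12.82, 12.99 and 12.87 in Wt liver. Its order was turned between the treatments, a difference of 0.82 (adjusted p = 0.00048). Over the mean of its kept probe sets the genotype difference of Slc25a20 with CDDO-Im did not pass (adjusted p = 0.098). For Acadvl the difference was 0.45 (adjusted p = 0.0035). For Decr1 it was 0.76 (adjusted p = 0.032) and for Hadh, a hydroxyacyl-CoA dehydrogenase, 0.51 (adjusted p = 0.049), and these calls ended without any 1 of 12 and of 15 of the 16 mice (adjusted p up to 0.088 and 0.12). The exceptions were Nrf2-null vehicle replicate 1 for both, and also Nrf2-null CDDO-Im 3 replicate 3, Nrf2-null vehicle replicate 3 and Wt CDDO-Im 3 replicate 4 for Decr1. Crat, the carnitine acetyltransferase, had 1.06 (adjusted p = 0.048), lost without any 1 of 12 mice (adjusted p up to 0.12), all except Nrf2-null vehicle replicates 1 to 3 and Wt CDDO-Im 3 replicate 4. The receptor gene Ppara had −1.48 (adjusted p = 0.0066), and −0.97 over the mean of its kept probe sets (adjusted p = 0.12). It was at 10.81, 10.82, 10.53 and 10.21 in Nrf2-null and at 10.81, 10.94, 10.94 and 11.22 in Wt liver with CDDO-Im, and at 12.09, 11.20, 11.43 and 11.33 in Nrf2-null and at 10.56, 10.46, 10.08 and 10.58 in Wt liver with vehicle.

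Several of the largest differences were in genes whose order of the genotypes was turned. Nipbl, which loads cohesin onto chromosomes, was at 9.29, 9.85, 9.37 and 9.24 in Nrf2-null and at 9.92, 9.91, 9.94 and 9.92 in Wt liver with CDDO-Im, and at 10.01, 10.10, 10.17 and 10.30 in Nrf2-null and at 8.92, 8.87, 8.93 and 9.09 in Wt liver with vehicle. The mice of a treatment did not overlap in either, and the difference was −1.68 (adjusted p = 9.0e-08), and −0.67 over the mean of its kept probe sets (adjusted p = 0.00030). Over that mean the genotype difference of Nipbl with CDDO-Im itself did not pass (adjusted p = 0.11). Ankrd52, a subunit of protein phosphatase 6, had −2.19 (adjusted p = 1.3e-06), and Anpep, aminopeptidase N, −2.08 (adjusted p = 0.00019). The genotype difference of Anpep with CDDO-Im, −0.89 (adjusted p = 0.0092), did not pass without Nrf2-null replicate 4 (−0.58, adjusted p = 0.071). The uncharacterised 2310001H17Rik and 3300002A11Rik had −2.10 (adjusted p = 0.021) and −1.77 (adjusted p = 0.0038), the first without a call when any 1 of 6 of the 16 mice was left out (adjusted p up to 0.063), namely replicate 4 of either Nrf2-null group or replicates 2 or 3 of either Wt group. On the probe set of largest variance 2310001H17Rik had −0.52 (adjusted p = 0.77). Its mice overlapped with CDDO-Im, where the genotype difference of −0.81 was not called (adjusted p = 0.15). Ftsj3, a ribosomal RNA methyltransferase, had −1.48 (adjusted p = 0.00019), but its genotype difference of 0.41 with vehicle was not called (adjusted p = 0.091).

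In the other direction, Steap3, an endosomal ferrireductase, was at 6.63, 6.25, 6.47 and 6.32 in Nrf2-null and at 4.97, 4.65, 5.63 and 4.83 in Wt liver with CDDO-Im, and at 5.51, 4.82, 4.73 and 5.20 in Nrf2-null and at 6.17, 5.62, 5.50 and 6.01 in Wt liver with vehicle. Its difference was 2.16 (adjusted p = 2.9e-05). Agbl5, a deglutamylase of tubulin, had 1.87 (adjusted p = 3.3e-05) and 1700029I15Rik 1.12 (adjusted p = 0.0049). D2hgdh, which oxidizes D-2-hydroxyglutarate, had 1.02 (adjusted p = 0.0014), with overlapping mice at CDDO-Im (−0.01) and a lower level in Nrf2-null vehicle mice (−1.03), and had 0.46 on the probe set of largest variance (adjusted p = 0.50). Tpm2, a tropomyosin, Taf7, of the initiation factor TFIID, and the noncoding Pvt1 had 2.31, 1.13 and 1.23 (adjusted p = 0.048, 0.049 and 0.036). Their calls ended without any 1 of 12, 11 and 12 of the 16 mice (adjusted p up to 0.13, 0.14 and 0.096). The exceptions were Nrf2-null CDDO-Im 3 replicate 3, Nrf2-null vehicle replicate 1, Wt CDDO-Im 3 replicate 4 and Wt vehicle replicate 3 for Tpm2. For Taf7 they were Nrf2-null CDDO-Im 3 replicate 3, Nrf2-null vehicle replicates 2 and 4 and Wt CDDO-Im 3 replicates 1 and 4. For Pvt1 they were Nrf2-null vehicle replicates 1 and 3, Wt CDDO-Im 3 replicate 3 and Wt vehicle replicate 4. Of these 16 mice only Wt vehicle mice reached the minimum in Pvt1, at 4.53, 4.69, 4.54 and 2.96, so the size is not exact.

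A chemokine and a lectin had higher levels in Wt mice with CDDO-Im than in the other 3 groups. Cxcl14, a chemokine, was at 2.34, 2.35, 2.36 and 2.35 in Nrf2-null and at 6.17, 5.37, 5.02 and 2.35 in Wt liver with CDDO-Im, and between 2.33 and 2.42 in all 8 vehicle mice. Its level was up in 3 of the 4 Wt mice and not in replicate 4, which was also the lowest of them in the acute-phase mean, and the difference was −2.34 (adjusted p = 0.019), without a call when Wt CDDO-Im 3 replicates 1 (−1.86, adjusted p = 0.054) or 2 (−2.13, adjusted p = 0.059) were left out. Its probe set passed the minimum through the Wt CDDO-Im group where it was high, so that a difference was built in. With no minimum another probe set stood for Cxcl14 and gave −0.04 (adjusted p = 0.94), and a fit to these groups alone gave adjusted p = 0.18. Clec4n, the lectin dectin-2 of macrophages and dendritic cells, was at 3.87, 4.33, 4.79 and 4.29 in Nrf2-null and at 6.11, 6.00, 6.37 and 5.63 in Wt liver, and between 4.27 and 4.95 with vehicle. Its difference was −1.71 (adjusted p = 0.022), and it ended without Nrf2-null CDDO-Im 3 replicate 1 (adjusted p = 0.057), Wt CDDO-Im 3 replicate 3 (0.059) or Wt vehicle replicate 4 (0.056). Abcc2 had −0.68 (adjusted p = 0.019), lost without Wt vehicle replicate 2 (−0.60, adjusted p = 0.055), and Psmb3 had 0.60 (adjusted p = 0.017), but 0.13 on the probe set of largest variance (adjusted p = 0.77) and 0.37 over the mean of its kept probe sets (adjusted p = 0.21).

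In the lists of detoxification, thiol, NADPH and iron genes the difference from vehicle was called for Abcc2 and for Ephx2 (0.60, adjusted p = 0.030) alone, and that of Ephx2 ended without any 1 of 11 of the 16 mice (adjusted p up to 0.092), all except replicate 3 of both Nrf2-null groups, Nrf2-null vehicle replicate 1, Wt CDDO-Im 3 replicate 4 and Wt vehicle replicate 1. Nqo1 differed between genotypes by −2.66 with CDDO-Im and −1.57 with vehicle, and the difference of −1.09 did not pass (adjusted p = 0.23). For Gstm3 it was −1.19 (adjusted p = 0.23), for Gstm1 −0.61 (adjusted p = 0.36) and for Ces1g 0.36 (adjusted p = 0.71). Against vehicle, Nqo1 changed by 0.12 in Nrf2-null and 1.21 in Wt liver (adjusted p = 0.91 and 0.074), and Gstm3 by −0.01 in Nrf2-null and 1.18 in Wt liver (adjusted p = 1.0 and 0.14). These changes share the CDDO-Im mice of the main comparison and are given side by side only. Over all genes CDDO-Im at this dose changed 75 genes in Nrf2-null liver (0.774%), 30 higher (0.309%) and 45 lower (0.464%), and 46 in Wt liver (0.474%), 22 higher (0.227%) and 24 lower (0.248%).

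**Figure D4:**
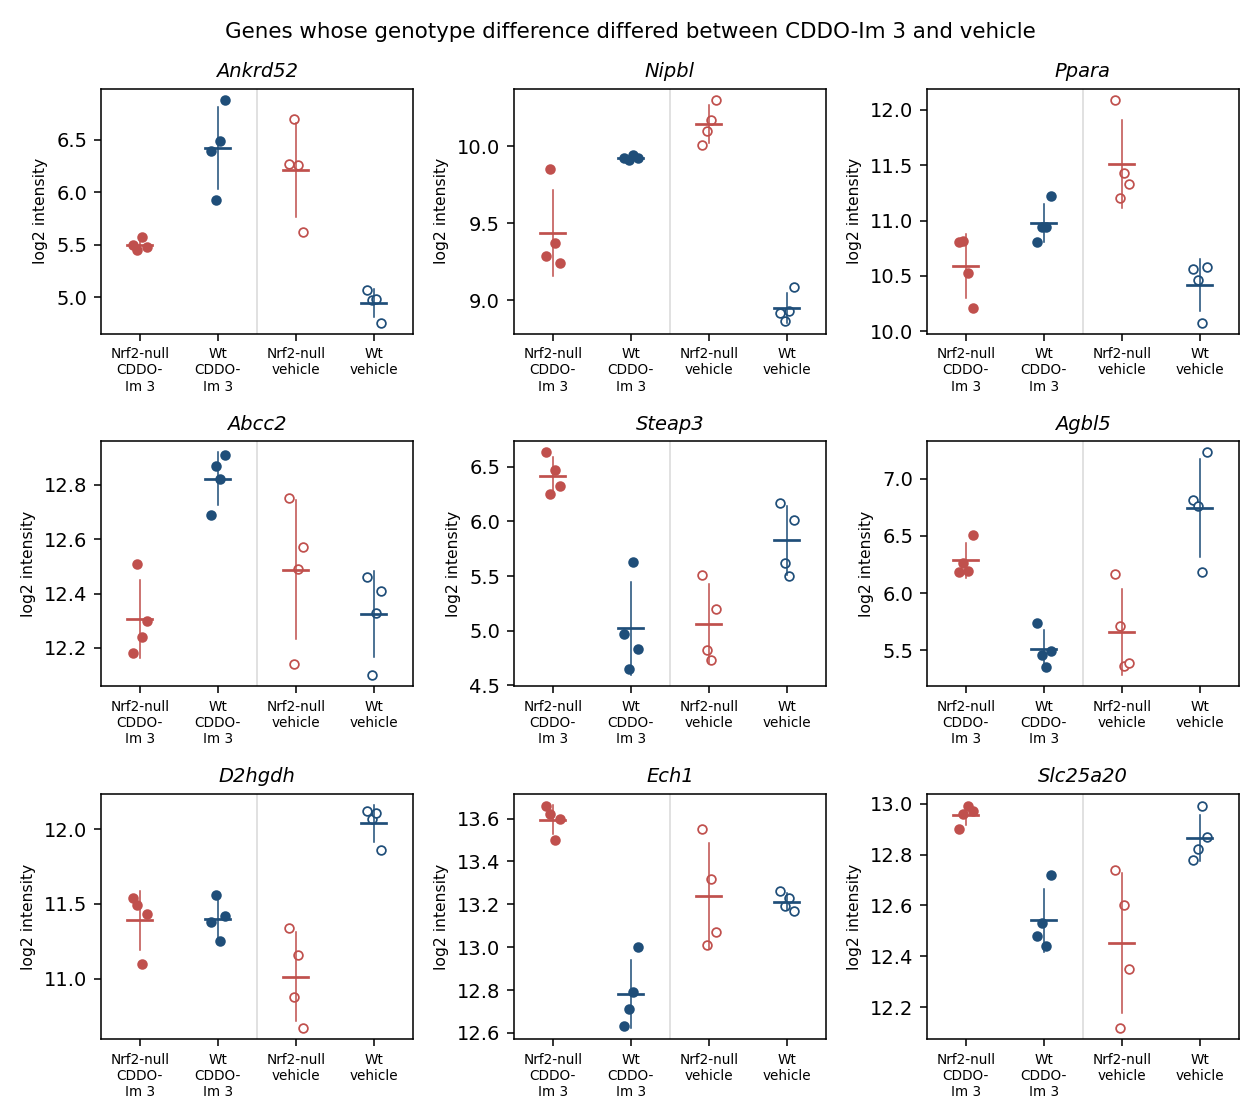
Log2 intensity in each mouse of 9 genes whose genotype difference differed between 3 μmol/kg CDDO-Im (filled) and vehicle (open), with Nrf2-null left of Wt in each treatment, horizontal lines at the means and vertical lines of 1 SD each way (n = 4); the vertical axes differ and do not start at 0. In Nipbl the Nrf2-null mice lie below the Wt mice with CDDO-Im, at 9.24 to 9.85 against 9.91 to 9.94, and above them with vehicle, at 10.01 to 10.30 against 8.87 to 9.09.

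The same genotype comparison at the other treatments used other mice, whose clock gene levels were less alike. At 10 μmol/kg CDDO-Im the clock score ran from −2.55 to 2.33 in the Nrf2-null and from 2.30 to 3.99 in the Wt mice. With D3T it ran from −1.96 to 1.16 in the Nrf2-null and from −1.435 to 0.49 in the Wt mice. How this bears on the overlaps was not tested. Of the 478 lower genes 141 were also lower with vehicle, 29.5% of them and 29.3% of the 482 lower with vehicle (4.97% of all genes). With D3T 104 were, 21.8% of them and 22.7% of 458 (4.72% of all). At 10 μmol/kg CDDO-Im 132 were, 27.6% of them and 40.9% of 323 (3.33% of all), and at 30 μmol/kg 225 were, 47.1% of them and 33.8% of 666 (6.87% of all). These shares lay above the backgrounds, but all comparisons, for lower and higher genes alike, share 1 estimate of each gene's spread, which by itself favours overlap. Lower in all 5 treatments were 55 genes, with Nqo1, Gstm3, Gsta2, Gstm1, Aox1, Ces1g, Ephx1, Ugdh, Abcc3, Txnrd1, Me1 and Fth1 among them, and 194 were called lower at 3 μmol/kg CDDO-Im and at no other treatment. Of the 453 higher genes 105 were also higher with vehicle, 23.2% of them and 18.5% of 567 (5.85% of all). With D3T 37 were, 8.17% of them and 8.58% of 431 (4.45% of all). At 10 μmol/kg 228 were, 50.3% of them and 20.9% of 1090 (11.2% of all), and at 30 μmol/kg 344 were, 75.9% of them and 11.2% of 3070 (31.7% of all). The overlap of higher genes with D3T was the smallest of the 4. Higher in all 5 were 16 genes, Cyp4a31 and Ccnd1 among them, and 71 were called higher at 3 μmol/kg and at no other treatment. Whether the genotype differences themselves differed between treatments other than vehicle was not tested.

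**Figure D5:**
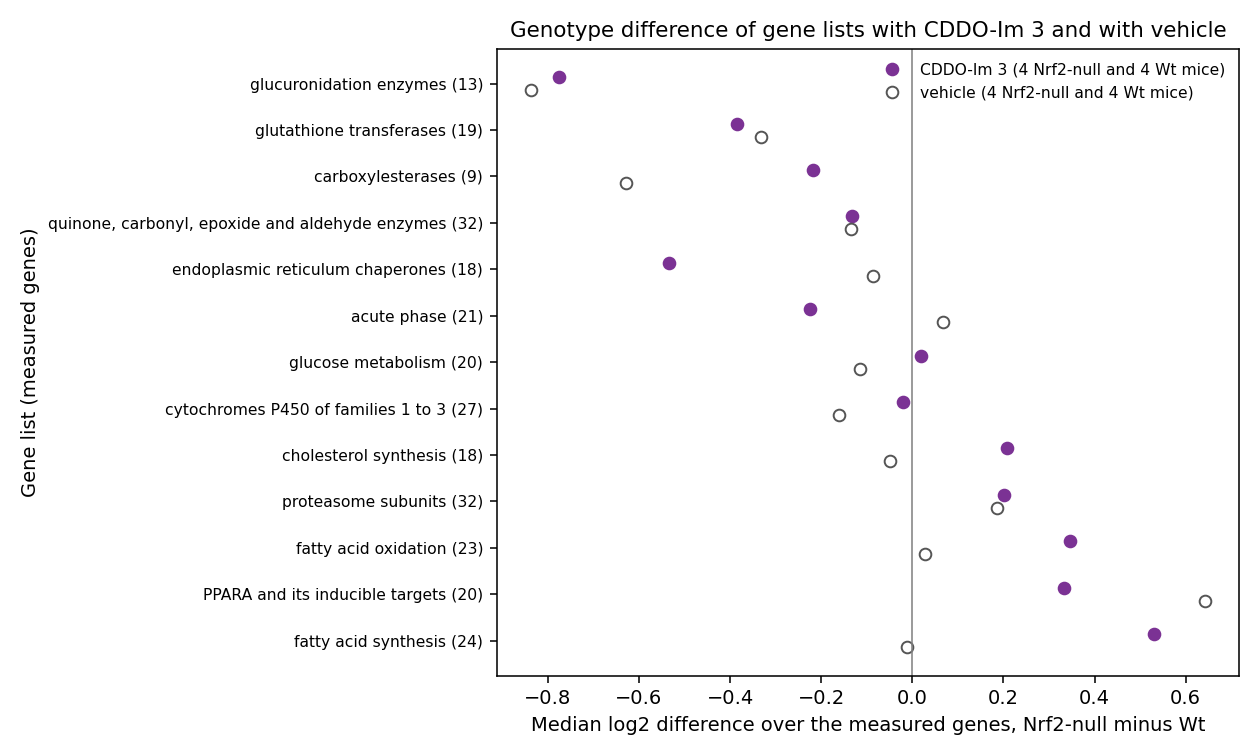
Median log2 difference, Nrf2-null minus Wt, over the measured genes of 13 lists (number of genes in brackets) with 3 μmol/kg CDDO-Im (filled) and with vehicle (open). Glucuronidation enzymes and glutathione transferases lie left of 0 in both (−0.775 and −0.38 with CDDO-Im), while endoplasmic reticulum chaperones (−0.53 and −0.087) and fatty acid oxidation (0.35 and 0.027) lie farther from 0 with CDDO-Im than with vehicle. The difference from vehicle was called in none of the 18 chaperones and in 5 of the 23 fatty acid oxidation genes.

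Genes that flank Nfe2l2 on chromosome 2 were counted, because a null allele is inherited with its surroundings. Of 56 measured genes among the 50 protein-coding genes on each side 5 were called (8.93%), against 64 of 758 on the whole chromosome (8.44%) and 9.6% of all. Rbm45, an RNA-binding protein 7 genes away, was at 9.24, 9.13, 9.06 and 9.23 in the Nrf2-null and at 7.96, 8.28, 8.39 and 7.87 in the Wt mice, higher by 1.04 (adjusted p = 2.3e-05), and by 0.99 with vehicle (adjusted p = 3.9e-05). Sestd1, 15 genes away, was higher by 0.70 (adjusted p = 0.026) and Metap1d by 0.34 (adjusted p = 0.041), while Atf2 was lower by −0.40 (adjusted p = 0.00093, but −0.18 and 0.34 on the probe set of largest variance) and Plekha3 by −0.34 (adjusted p = 0.040). The calls of Sestd1, Metap1d and Plekha3 ended without any 1 of 3, 6 and 6 of the 8 mice (adjusted p up to 0.095, 0.14 and 0.15). For Sestd1 these were Nrf2-null replicates 1 and 4 and Wt replicate 1. They were all except replicate 3 of each genotype for Metap1d, and all except Nrf2-null replicate 2 and Wt replicate 3 for Plekha3.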

How the data were processed

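RNA of 40 livers was measured on Affymetrix mouse arrays. The authors made the deposited log2 intensities with GCRMA, which corrects background by probe GC content and normalizes quantiles. The sources used here do not name its version or which arrays were normalized as 1 set. Groups came from the sample labels, whose descriptions also hold animal numbers in separate ranges for the 2 genotypes, so that what these numbers stand for cannot be told apart from genotype. Probe sets at log2 4 or more on 3 arrays of any group were kept. Of 45037 probe sets 34945 carried 1 symbol, 932 several and 9160 none, and 34741 matched GRCm38.p6. The kept probe set of highest mean stood for each of 9695 genes, 7 of which had kept probe sets called in opposite directions. limma 3.58.1 in R 4.3.3 fitted the 10 groups at once, with trend and robust variances and 30 residual degrees of freedom, and was tested on simulated data. The number of arrays limits the precision. Replicates are separate mice. The deviations of mice of the same replicate number correlated at −0.317, −0.207, −0.0697 and 0.0935, so the numbers do not pair them. Promoters are those of RefSeq. One promoter sequence is not reported here. Genes were named by a rule: Nfe2l2, the 12 largest non-overlapping calls in each direction, up to 8 called for the difference from vehicle in each direction, genes the study named, up to 4 per list and called neighbours of Nfe2l2. Some others were chosen after their values were seen. The members and the 43 lists were chosen with earlier results of these data known.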

Additional observations from a re-analysis of the deposited data

Results flagged for a closer look

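Among 110 named genes, 10 of 220 groups of 4 mice (4.55%) held a mouse far from the other 3 by Dixon's test, where about 1 in 20 groups is passed by chance. In the Nrf2-null mice these were replicate 3 in Lcn2 (11.27) and Marco (3.89), replicate 4 in Ehhadh (13.72) and Nqo1 (3.40), and replicate 1 in Psma6 (13.30). In the Wt mice they were replicate 4 in Acot3 (5.83), Orm1 (15.18) and Slc35d1 (12.04), replicate 3 in Cyp2b9 (4.19) and replicate 1 in Sestd1 (4.90).

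The genotype difference with CDDO-Im differed from that with vehicle, by limma, in 25 named genes. It was more negative in Cxcl14 (−2.34), Ankrd52 (−2.19), 2310001H17Rik (−2.10), Anpep (−2.08), 3300002A11Rik (−1.77), Clec4n (−1.71), Nipbl (−1.68), Ftsj3 (−1.48), Ppara (−1.48) and Abcc2 (−0.68). It was more positive in Tpm2 (2.31), Steap3 (2.16), Agbl5 (1.87), Pvt1 (1.23), Taf7 (1.13), 1700029I15Rik (1.12), Crat (1.06), D2hgdh (1.02), Slc25a20 (0.82), Ech1 (0.78), Decr1 (0.76), Psmb3 (0.60), Ephx2 (0.60), Hadh (0.51) and Acadvl (0.45).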

How the results depend on the processing

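The 931 calls at 3 μmol/kg CDDO-Im were 1824 with arrayWeights, 355 with a 1.5-fold minimum beside the test and 401 by the methods' exact Wilcoxon test with a 1.5-fold minimum, unadjusted, of which none passed after Benjamini-Hochberg (smallest adjusted p = 0.15). Leaving out 1 mouse gave 597 to 889. The 167 calls of the difference from vehicle were 91 in a fit to these groups alone, 97 with no minimum, 717 with arrayWeights, 316 with the probe set of largest variance and 105 with the acute-phase mean as a covariate, and 95 to 347 without 1 mouse. The acute-phase covariate was chosen after seeing the data. The causes of these shifts were not tested. The other alternatives run gave counts within 1.5 times of these, but not always the same genes. A fit to the groups of CDDO-Im 3 alone called 1013, with 695 of the 931 among them. The probe set of largest variance called 888, with 703 of the 931 among them. Levels below log2 4, as of Nqo1 in Nrf2-null liver and Cyp2b9 in most Wt livers, limit the precision of their differences. With the replicate block, for mice that share only a number, the counts were 946 and 142. The share of promoters of lower genes with the element was 1.04% with TGACTCAGC and 41.8% with TGANNNNGC, which is looser. Hspa8, lower by −0.73, was at 0.92 on the probe set of largest variance (adjusted p = 0.30). A fit to the groups of the comparison alone also ended calls at CDDO-Im, among them Slc48a1, Cyp7b1, Moxd1, Marco, Orm1, Orm2 and Orm3. Others so lost included Acot4, Anpep, Apoa1, Hand2, Mgst3, Metap1d and Plekha3. For the difference from vehicle, calls that ended in such a fit included Acadvl, Abcc2 and 3300002A11Rik. The acute-phase covariate also ended calls at CDDO-Im, among them Hnf4a, Txnrd2, Pir, Srxn1, Ephx2 and Ugt2a3. Cd36, Mgst3, Ccnd1, Fabp5, Elovl5, Pmvk, Dnajc3, Apoa1, Hand2, Marco, Orm1, Orm2 and Orm3 lost theirs under it too. For named genes, 3277 of the alternatives kept the side of the threshold, 424 lost a call, 46 gained one and 1 turned the direction of a called difference. Changes of sign in differences that were not called are counted among the 3277.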
